A study of Mus musculus with 53 samples.

Results

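Sciatic nerve (SCN) from prediabetic HFD mice and SD mice was compared at 16 weeks of age, with 7 HFD and 5 SD samples of the 53 in the series. The samples were selected by their diet and age labels. The C57BL/6J mice of both groups were male, received no streptozotocin and had no dietary reversal. HFD mice were fed a diet with 60% of its energy as fat from 5 weeks of age. SD mice stayed on the control diet, which the series gives as 13% fat and the paper as a lower share. RNA-seq values for 49568 genes per sample were deposited on a log2 scale, and 17966 genes whose log2 values averaged 3.3 or more over these 12 samples, about 10 on the linear scale, were tested. The 25 genes with a value above 22 anywhere in the series were left out, although none of those values lies in these 12 samples. Read depth is unknown from these values, so the precision given is the spread between samples. Sample numbers below follow the order of deposit and do not pair mice.

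The sciatic nerve holds axons, the Schwann cells that wrap them in myelin, perineurial and endoneurial fibroblasts, vessels and resident macrophages. Its outer sheath contains fat, and a dissected nerve may carry adjoining adipose tissue or muscle. Obesity enlarges adipocytes, which then release more leptin and attract immune cells. In whole tissue, more cells of a type and more RNA per cell of that type cannot be told apart.

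Nnat was the only gene that passed the threshold at 16 weeks. The difference between HFD and SD nerve was tested with limma on the log2 values, with Benjamini-Hochberg adjustment over all genes, which left 1 of 17966 genes (0.00557%) below an adjusted p-value of 0.05. The second smallest adjusted p-value was 0.154. Without adjustment, 895 genes (4.98%) had a p-value under 0.05 and were higher in HFD nerve, and 642 (3.57%) were lower. The 7 HFD values lay above all 5 SD values for 57 genes (0.317%) and below them for 44 (0.245%). After each sample was centred on its median, the unadjusted counts were 685 higher and 1113 lower, so which direction held more genes depended on this scaling. The tests described below for genes other than Nnat did not pass adjustment in this fit, though some passed in the alternative fits described at the end. The exact p-value given with a gene is that of a 2-sided exact permutation test on that gene alone. The smallest that 5 and 7 samples can give is 0.00253. Counts of genes with p under 0.05 refer to unadjusted limma p-values, and the shares of 4.98% higher and 3.57% lower are their baseline. By sign alone, 9432 of the 17966 genes were higher in HFD nerve and 8534 were lower.

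Nnat encodes neuronatin, a small membrane protein of the endoplasmic reticulum that is expressed from the paternal allele and is found in neuroendocrine cells and in fat. In SD nerve, its log2 values were 7.34, 7.91, 8.35, 8.33 and 8.34. In HFD nerve, they ran from 10.58 to 12.60 with a median of 11.65. The lowest HFD sample therefore stood above the highest SD sample. The standard deviation was 0.44 in these 5 SD samples, against 1.36 in the 8 SD samples at 24 weeks. Nnat rose by 3.61 on the log2 scale (SE 0.32), which is 12.2 times on the linear scale, with an adjusted p-value of 0.00056 by limma. The exact permutation test gave p = 0.00253.

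Nnat lies on chromosome 2 at positions 157560078 to 157562522 of the plus strand (GRCm38). It sits inside the span of Blcap, which runs from 157556362 to 157571274 on the minus strand. The libraries carried no strand information, so reads from overlapping exons of these genes cannot be told apart. Blcap, also imprinted in some tissues, had log2 values from 10.86 to 11.12 in SD and from 11.08 to 11.36 in HFD nerve, a difference of 0.24 (SE 0.08, exact p = 0.0126). The 250 bases before the Nnat start (RefSeq, GRCm38.p6, chr2:157559828-157560077, plus strand) are shown because this was the only gene called, and capitals mark the CG dinucleotides at which imprinted promoters can be methylated. They hold 12 CG dinucleotides, against a median of 6 in the 32851 promoters of the table.
Nnat: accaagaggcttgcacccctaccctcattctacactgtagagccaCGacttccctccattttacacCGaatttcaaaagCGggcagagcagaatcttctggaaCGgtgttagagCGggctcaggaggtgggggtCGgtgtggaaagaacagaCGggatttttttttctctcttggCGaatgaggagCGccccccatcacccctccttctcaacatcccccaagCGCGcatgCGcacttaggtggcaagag

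The Nnat call held in each of the 12 fits that left out 1 sample, with log2 fold changes from 3.43 to 3.79. The library numbers in the sample titles fall into 8 runs of consecutive numbers, of which 5 hold samples of both groups here, and Nnat was higher in HFD nerve in 5 of these 5 runs, by 2.57 to 4.95. With the run as a term in the fit, the log2 fold change was 3.51 (SE 0.31) and the adjusted p-value was 0.052. With the mean of 6 red blood cell genes as a covariate, it was 3.67 (SE 0.51) with an adjusted p-value of 0.166. With the mean of 10 adipocyte markers as a covariate, it was 2.99 (SE 0.28) with an adjusted p-value of 0.000877.

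**Figure D1:**
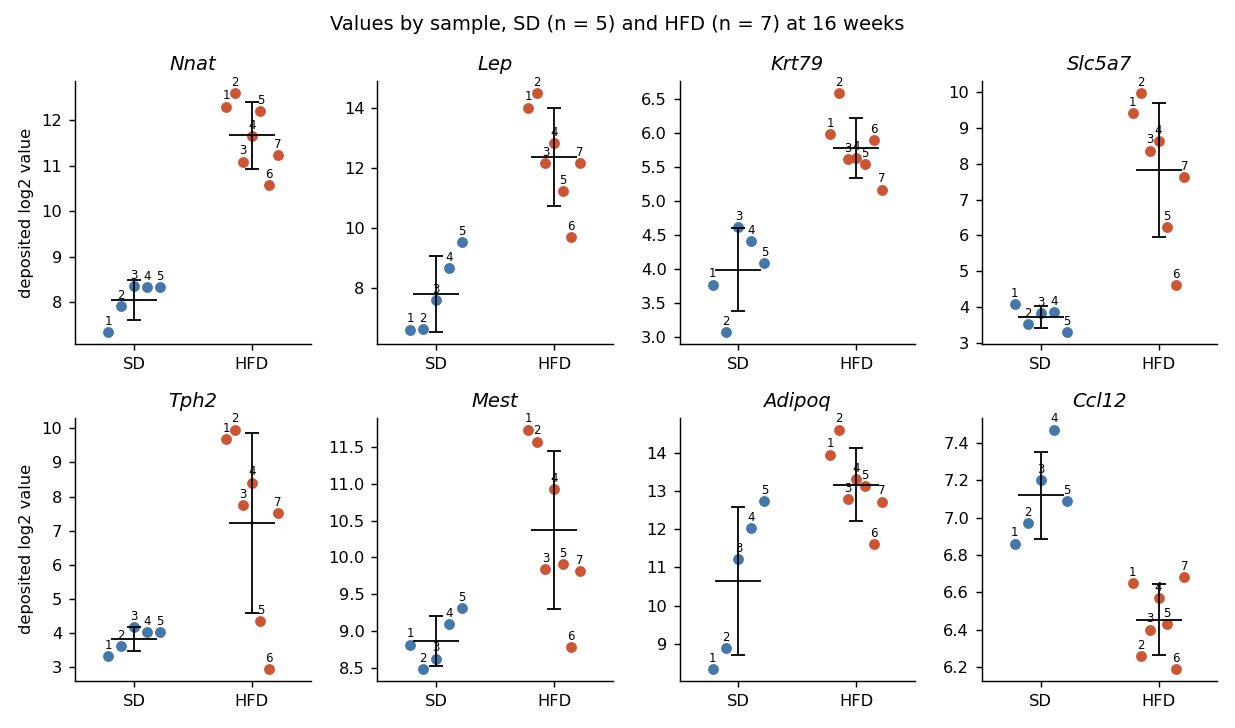
Deposited log2 values (y axis) of 8 genes in 5 SD and 7 HFD nerve samples at 16 weeks. Points are samples with their replicate numbers, the wide bar is the group mean and the whiskers are the SD over samples; each panel has its own axis that does not start at 0. Nnat, Lep, Krt79, Slc5a7 and Ccl12 do not overlap between groups, while Tph2 in HFD replicates 5 and 6 stood at 4.35 and 2.95, near the SD samples.

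Fat markers and marker genes of other tissues differed among the samples, and these values stand beside every result that follows. The mean log2 value of the adipocyte markers (Adipoq, Plin1, Plin4, Cidec, Fabp4, Retn, Cfd, Lipe, Pck1 and Thrsp) was 8.53, 9.25, 10.93, 11.76 and 12.54 in the SD samples. It was 11.56 to 13.34, with a median of 12.16, in the HFD samples. SD replicates 1 and 2 thus held the least fat RNA, and SD replicate 5 lay within the HFD range. All 10 markers were higher on average in HFD nerve, 6 of them with p under 0.05, with a median log2 fold change of 1.81. Over all genes tested the median was 0.01.

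Adiponectin, the adipocyte hormone encoded by Adipoq, showed the same overlap. In SD nerve, Adipoq stood at 8.34, 8.89, 11.21, 12.03 and 12.74. HFD samples ranged from 11.61 to 14.60 with a median of 13.13, which gave a log2 fold change of 2.52 (SE 0.72, exact p = 0.0177). Fabp4, the fatty acid carrier of adipocytes, was the most abundant of these markers, with 10.08 to 14.29 in SD and 13.85 to 15.76 in HFD nerve (2.31, SE 0.60, exact p = 0.0101). At 24 weeks, 6 of the 10 markers were higher in HFD nerve and the median was 0.44.

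The skeletal muscle markers were uneven between single samples in both groups. Their mean was 13.67 in SD replicate 2 and 6.52 to 7.64 in the other SD samples, and it ran from 6.77 to 11.48 in HFD nerve. HFD replicates 3 to 6, at 8.68 to 11.48, stood above every SD sample except replicate 2. None of the 13 muscle markers tested had p under 0.05 in either direction, and 9 were higher in HFD nerve. The log2 fold changes of Acta1, Myh1 and Myh2 were 0.98 (SE 1.33), 1.16 (SE 0.94) and 0.76 (SE 0.60). Without SD replicate 2 they were 2.55 (SE 0.81), 1.78 (SE 0.93) and 0.93 (SE 0.65). Ucp1, the uncoupling protein of thermogenic fat, was at 12.22 in HFD replicate 6 and at 2.46 to 5.62 in the other 11 samples. Cidea, another gene of thermogenic fat, was at 11.28 in that sample and at 3.07 to 6.36 elsewhere. Ucp1 and Cidea were picked after their values were seen, and the part of this fat in other results was not tested.

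**Figure D2:**
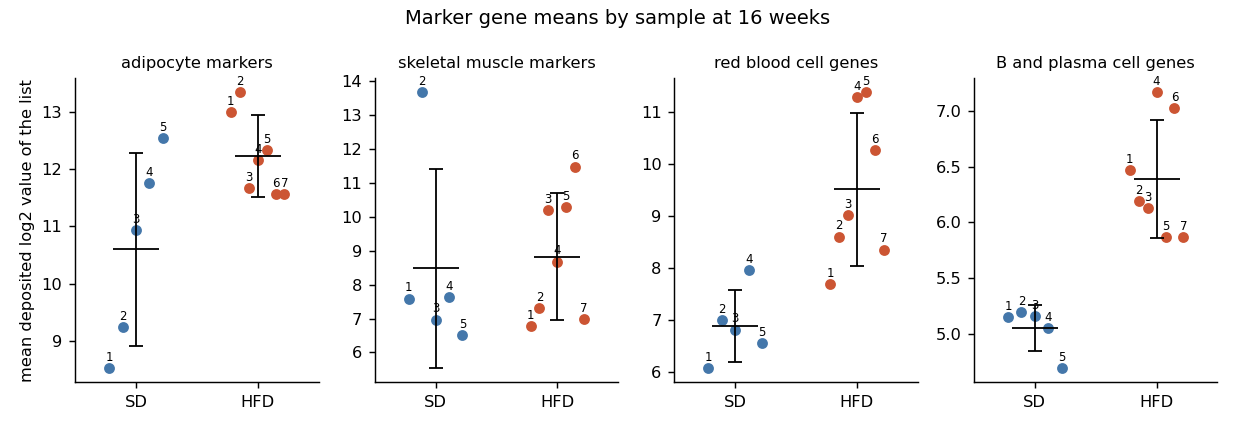
Mean deposited log2 value of the tested genes of 4 lists (y axis) in each SD and HFD sample at 16 weeks. Points are samples with replicate numbers, wide bars are group means and whiskers the SD. Adipocyte means overlap between groups, the muscle mean of SD replicate 2 (13.67) stands apart, red blood cell means overlap, and the B and plasma cell means of HFD nerve (5.87 to 7.17) lie above those of SD nerve (4.69 to 5.19).

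Leptin and other genes of expanding fat showed higher levels in HFD nerve. Lep encodes leptin, the satiety hormone whose output follows fat mass. In SD nerve, Lep was at 6.60, 6.62, 7.58, 8.65 and 9.52. The HFD samples ranged from 9.69 to 14.50 around a median of 12.16. The groups did not overlap, although HFD replicate 6 lay only just above SD replicate 5, and the log2 fold change was 4.57 (SE 0.76, exact p = 0.00253, adjusted p = 0.154 by limma). Without HFD replicate 6, Lep had a log2 fold change of 5.02 and an adjusted p-value of 0.0216, and 7 genes passed the threshold.

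All 8 genes of the fat expansion list were higher in HFD nerve, 5 with p under 0.05, and their median log2 fold change was 1.45. The list holds Nnat and Lep, so its count repeats them. Mest, an imprinted gene whose adipose level tracks fat accumulation, ranged from 8.49 to 9.31 in SD and from 8.79 to 11.73 in HFD nerve (1.5, SE 0.43, exact p = 0.0101). Npr3, which clears natriuretic peptides, had a log2 fold change of 1.41 (SE 0.41, exact p = 0.0177). Cav1, the caveolar coat protein that Schwann and endothelial cells also express, differed by 0.18 (SE 0.15, exact p = 0.29). At 24 weeks, 8 of 8 were higher, with a median of 0.87.

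Among 26 imprinted genes tested, 19 were higher in HFD nerve and 6 of these had p under 0.05, against 4.98% of all genes. The median was 0.17. Besides Nnat, Mest and Blcap, Peg3, a zinc finger gene expressed from the paternal allele, was at 10.53 to 10.96 in SD and at 10.78 to 12.20 in HFD nerve (0.71, SE 0.20, exact p = 0.0101). H19, Dlk1 and Meg3 had log2 fold changes of -0.08, -0.21 and 0.07 (exact p-values of 0.598, 0.409 and 0.828).

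The 5 genes whose log2 values followed Nnat most closely over the 12 samples were Lep (Pearson's r = 0.934), Gm10851 (0.932), Cdsn (0.924), Krt79 (0.910) and Tusc5 (0.910). The r values are descriptive, since the 12 points share the separation of the diet groups. Tusc5 is expressed in fat and aids insulin-stimulated glucose transport, and its log2 fold change was 1.65.

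The 12 genes with the smallest p-values and a higher level in HFD nerve were Nnat, Krt79, Gm10851, Lep, Slc5a7, Brip1, Ctcflos, Rarg, Cdsn, Il18rap, Dnajb13 and Aqp7. None of them overlapped between groups, a feature of 0.317% of all genes that follows in part from choosing by p-value. Krt79, an epithelial keratin, was at 3.77, 3.07, 4.62, 4.41 and 4.09 in SD nerve. In HFD nerve it ran from 5.17 to 6.59 with a median of 5.64, a log2 fold change of 1.78 (SE 0.29, exact p = 0.00253). Cdsn encodes corneodesmosin, an adhesion protein of the skin surface, and had a log2 fold change of 2.09 (SE 0.40).

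Gm10851 and Ctcflos are annotated as antisense to Pfkfb3 and Ctcfl. The log2 fold change of Gm10851 was 2.14 (SE 0.35), and that of Pfkfb3, a regulator of glycolysis on the opposite strand, was 0.91 (SE 0.33, exact p = 0.0303). Without strand information these values cannot be separated. Ctcflos had a log2 fold change of 2.13 (SE 0.41). Aqp7, the channel through which adipocytes release glycerol, ranged from 6.04 to 9.18 in SD and from 9.75 to 11.73 in HFD nerve (2.56, SE 0.50). Rarg, a retinoic acid receptor, was abundant and differed little in size, with 10.73 to 11.25 in SD and 11.34 to 11.72 in HFD nerve (0.47, SE 0.09, exact p = 0.00253). Il18rap, a subunit of the interleukin-18 receptor, had a log2 fold change of 1.34 (SE 0.26) and Brip1, a DNA repair helicase, one of 1.66 (SE 0.31).

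Among the HFD samples, Tph2, Itgad, Ubd and Lipf were lowest in replicates 5 and 6. They belong to a list of 11 genes picked from those that the paper or its supplementary tables name, which were found with these libraries, so their direction is not independent evidence. All 11 were higher in HFD nerve with p under 0.05, with a median log2 fold change of 2.32. Slc5a7, the high-affinity choline transporter, was at 4.07, 3.52, 3.82, 3.85 and 3.29 in SD nerve. The HFD samples ran from 4.61 to 9.98 with a median of 8.37, and the lowest were replicates 6 (4.61) and 5 (6.23). Tph2, the neuronal enzyme of serotonin synthesis, was at 3.33 to 4.17 in SD nerve. Its HFD values were 9.68, 9.96, 7.75, 8.41, 4.35, 2.95 and 7.51 in replicates 1 to 7, so replicate 6 fell below every SD sample. Other genes of the list did not share this: Lpl was at 13.98 and 13.77 in replicates 5 and 6, against 14.00 and 13.94 in replicates 3 and 7, and Dgat2 was at 12.52 and 12.51, against 12.40 and 12.67.

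Itgad, an integrin subunit of macrophages, was at 3.55 and 4.84 in HFD replicates 5 and 6, against 2.83 to 3.47 in SD nerve and up to 9.75 in HFD nerve (3.71, SE 0.86, exact p = 0.00253). Ubd, a ubiquitin-like modifier induced by inflammatory cytokines, was at 4.73 and 5.50 in those samples, against 3.39 to 4.96 in SD nerve (3.27, SE 0.75, exact p = 0.00505). Lipf, encoding gastric lipase, was at 3.52 and 2.85, against 2.43 to 3.39 (2.32, SE 0.63, exact p = 0.0101). The SD means of Itgad (3.20) and Lipf (2.86) lay below the 3.3 required of the mean over the 12 samples. The adipocyte marker means of HFD replicates 5 and 6 were 12.33 and 11.57, and their red blood cell means were 11.39 and 10.28. In HFD replicates 1 to 4 and 7, the adipocyte means were 11.56 to 13.34 and the red blood cell means 7.69 to 11.30. The part of fat and blood content in these values was not tested.

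Genes of lipid handling were grouped by the step they serve. Of 13 triglyceride lipases and their regulators, 12 were higher in HFD nerve and 9 had p under 0.05, with a median log2 fold change of 0.69. G0s2, an inhibitor of the main intracellular triglyceride lipase, was at 10.20 to 10.74 in SD and at 10.90 to 11.64 in HFD nerve, with no overlap (0.69, SE 0.14, exact p = 0.00253). Lpl, which frees fatty acids from circulating lipoproteins, had a log2 fold change of 2.21 (SE 0.57, exact p = 0.0126). Of 11 lipid droplet proteins, 9 were higher and 5 had p under 0.05 (median 0.28). Plin5, a droplet protein of oxidative tissue, ranged from 4.56 to 6.34 in SD and from 6.36 to 9.44 in HFD nerve, and its highest value came from replicate 6, the sample with Ucp1.

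Of 16 triglyceride synthesis enzymes, 12 were higher, 3 of them with p under 0.05, and 2 were lower with p under 0.05 (median 0.14). Dgat2, which adds the last acyl chain of a triglyceride, ranged from 10.43 to 12.80 in SD and from 12.40 to 14.47 in HFD nerve (1.77, SE 0.46, exact p = 0.0126). Agpat5, which makes phosphatidic acid, was lower by 0.20 on the log2 scale (-0.20, SE 0.07, exact p = 0.00505). Of 14 genes of fatty acid uptake and activation, 9 were higher and 2 passed p under 0.05 (median 0.07), namely Fabp4 and Cd36, the fatty acid translocase (1.99, SE 0.52, exact p = 0.0101).

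Fatty acid and cholesterol synthesis genes had medians below 0. Of 20 fatty acid synthesis and desaturation genes, 12 were lower and 3 of these had p under 0.05, with 1 higher (median -0.10). Acly, which supplies cytosolic acetyl-CoA, was at 13.73 to 14.72 in SD and at 13.39 to 13.78 in HFD nerve (-0.44, SE 0.15, exact p = 0.00758), and Fads2, a fatty acid desaturase, differed by -0.20 (SE 0.09, exact p = 0.053). Of 24 cholesterol synthesis and uptake genes, 20 were lower and 7 had p under 0.05, against 3.57% of all genes, with a median of -0.21. Ebp, a sterol isomerase, did not overlap between groups, at 10.66 to 11.00 in SD and 10.45 to 10.61 in HFD nerve (-0.23, SE 0.07, exact p = 0.00253). Tm7sf2, a sterol reductase, differed by -0.57 (SE 0.18, exact p = 0.0202). With the adipocyte mean as a covariate, the median of the cholesterol genes was 0.00, and without SD replicate 2 it was -0.12.

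Of 26 genes of fatty acid oxidation and ketone use, 17 were higher, with 1 on each side past p of 0.05 (median 0.12). Acot1, a cytosolic acyl-CoA thioesterase, was lower with no overlap, at 9.86 to 10.57 in SD and 9.21 to 9.83 in HFD nerve (-0.57, SE 0.14, exact p = 0.00253). Cpt2, the inner carnitine palmitoyltransferase of mitochondria, differed by 0.41 (SE 0.19, exact p = 0.0884). None of the 23 glycolysis genes had p under 0.05, and their median was 0.00. Among 19 insulin and IGF signalling genes (median 0.04), 3 were higher with p under 0.05, Igf1r among them (0.40, SE 0.12, exact p = 0.0152), and Akt1 was lower (-0.13, SE 0.06, exact p = 0.0202).

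**Figure D3:**
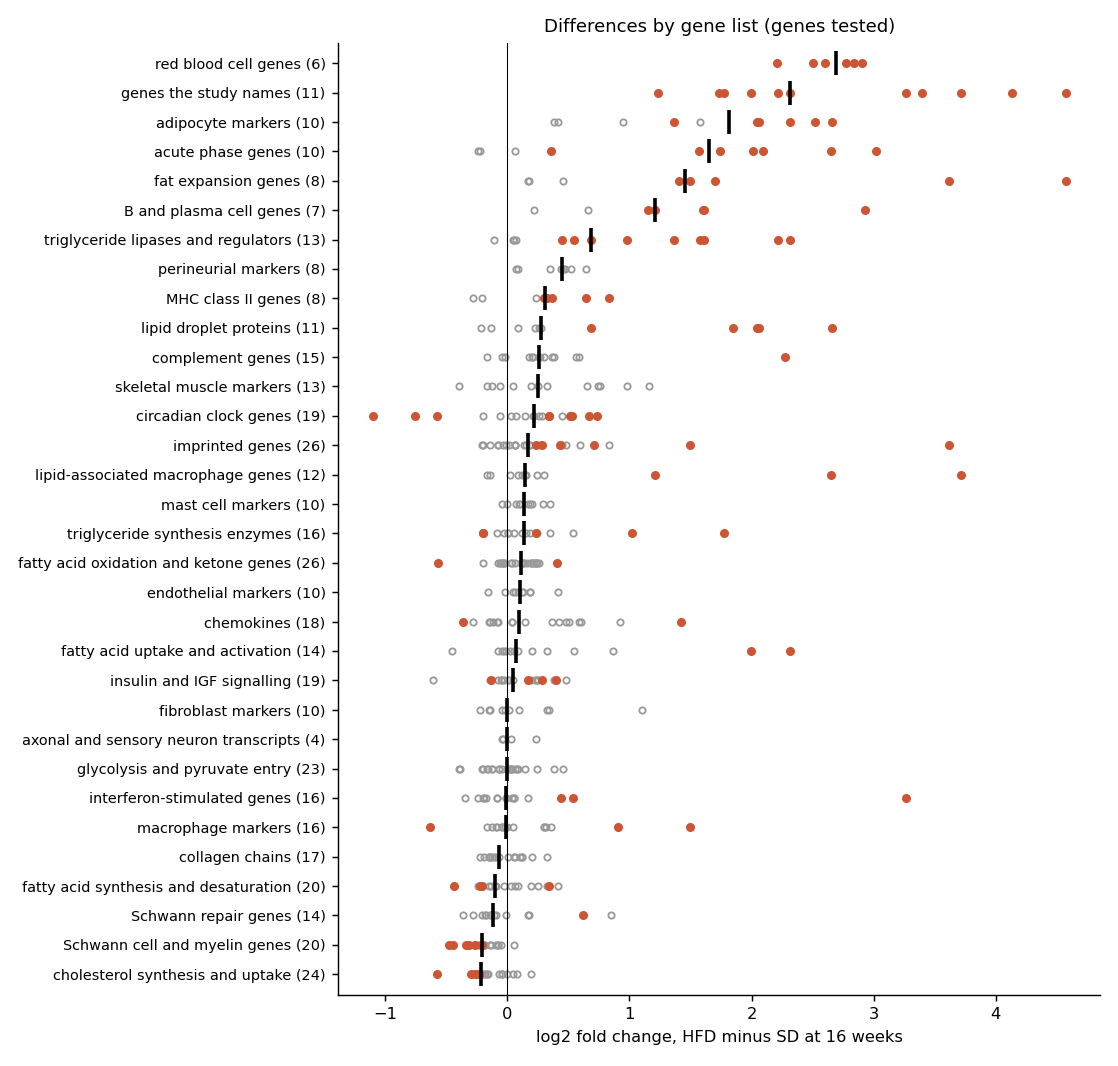
Log2 fold change (HFD minus SD, x axis) at 16 weeks of each tested gene in 32 gene lists (y axis, with the number tested in brackets). Filled points have an unadjusted p-value under 0.05, open points do not, and vertical bars are list medians. Medians run from -0.21 for cholesterol synthesis and for myelin genes to 2.69 for red blood cell genes, and the lists were chosen with earlier results of these data known.

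Myelin genes were lower in HFD nerve on average, by a small amount that most genes of the list shared. Of 20 Schwann cell and myelin genes, 19 were lower and 6 of these had p under 0.05, against 3.57% of all genes, and the median log2 fold change was -0.21. Egr2, the transcription factor that drives myelination, was at 14.58, 14.73, 14.43, 14.30 and 14.15 in SD nerve. In HFD nerve it ran from 13.64 to 14.55 with a median of 13.84, and replicates 6 and 7 lay within the SD range (-0.48, SE 0.16, exact p = 0.0253). Pmp2, a lipid-binding myelin protein, differed by -0.44 (SE 0.15, exact p = 0.0227).

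With the adipocyte mean as a covariate the median of the myelin genes was -0.02, and Egr2 had a log2 fold change of -0.22 in that fit. The adipocyte mean itself differed between the diets (10.6 in SD and 12.2 in HFD nerve), so its part in the myelin values cannot be told apart from that of diet. The mean of the 20 genes was 15.45 in SD replicate 5, the SD sample with the most adipocyte RNA, and 15.66 to 15.86 in the other SD samples. In HFD nerve this mean ran from 15.32 to 15.73, and replicates 3, 5, 6 and 7 lay within the SD range. At 24 weeks, 17 of 20 were lower, with a median of -0.11. Schwann repair genes, which injured Schwann cells express, had 10 of 14 lower and 1 higher with p under 0.05 (median -0.12). That gene was Artn, encoding the neurotrophic factor artemin, at 2.69 to 3.72 in SD and 3.25 to 4.32 in HFD nerve (0.62, SE 0.24, exact p = 0.0177). Artn was close to the filter on low values. Its mean was 3.06 in SD nerve, below the 3.3 required over the 12 samples, and 3.69 in HFD nerve.

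Axonal and sensory neuron transcripts could be tested for 4 of 12 genes only, and none had p under 0.05 (median 0.00). Nefh, the heavy neurofilament chain, differed by 0.23 (SE 0.20, exact p = 0.316). The other 8 genes of that list were among the 25 left out. When these were kept, Nefl, Nefm, Tubb3 and Calca had log2 fold changes of 0.04, 0.14, -0.01 and 0.01, each within 2 SE of 0.

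Clock genes formed a pattern of both signs. The circadian clock is a feedback loop in which Arntl (BMAL1) and its partners Clock or Npas2 drive Per, Cry, Nr1d and the PAR-domain factors Dbp, Hlf and Tef, and the Nr1d repressors in turn hold down Arntl and Npas2. Of 19 clock genes, 6 were higher with p under 0.05 (Ciart, Dbp, Per3, Hlf, Tef and Nr1d1) and 3 were lower (Npas2, Arntl and Nfil3), against 4.98% and 3.57% of all genes. Dbp was at 11.62, 11.63, 11.35, 11.50 and 12.06 in SD nerve. The HFD samples ran from 11.93 to 12.58 with a median of 12.39, and only replicate 1 and replicate 7 lay within the SD range (0.67, SE 0.13, exact p = 0.00758, adjusted p = 0.23 by limma).

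Npas2 stood at 6.65, 7.65, 7.41, 7.96 and 7.48 in SD nerve. In HFD nerve it ranged from 5.83 to 7.07 around a median of 6.00, so SD replicate 1 lay among the HFD samples (-1.10, SE 0.28, exact p = 0.0101). Arntl was at 9.61 to 10.37 in SD and 8.63 to 9.81 in HFD nerve (-0.76, SE 0.21, exact p = 0.0101). Ciart, a repressor of Arntl and Clock, was at 7.94 to 8.73 in SD and 8.26 to 9.42 in HFD nerve (0.74, SE 0.22, exact p = 0.0227), and Hlf differed by 0.51 (SE 0.15, exact p = 0.0152). Within the library-number runs, Dbp was higher in HFD nerve in 5 of 5 and Npas2 was lower in 4 of 5.

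The hour at which nerves were collected is not given in the sources used here, and its part in the clock gene values was not tested. At 24 weeks the differences of Dbp, Ciart, Hlf and Tef were 0.11, 0.09, 0.03 and -0.01. The change from 16 to 24 weeks was -0.56 for Dbp, -0.48 for Hlf and -0.64 for Ciart, and none of these changes passed adjustment by limma. Arntl, Nfil3 and Npas2 were again lower in HFD nerve at 24 weeks. Arntl differed by -0.49 (exact p = 0.0155), Nfil3 by -0.59 (exact p = 0.0513) and Npas2 by -0.41 (SE 0.26).

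**Figure D4:**
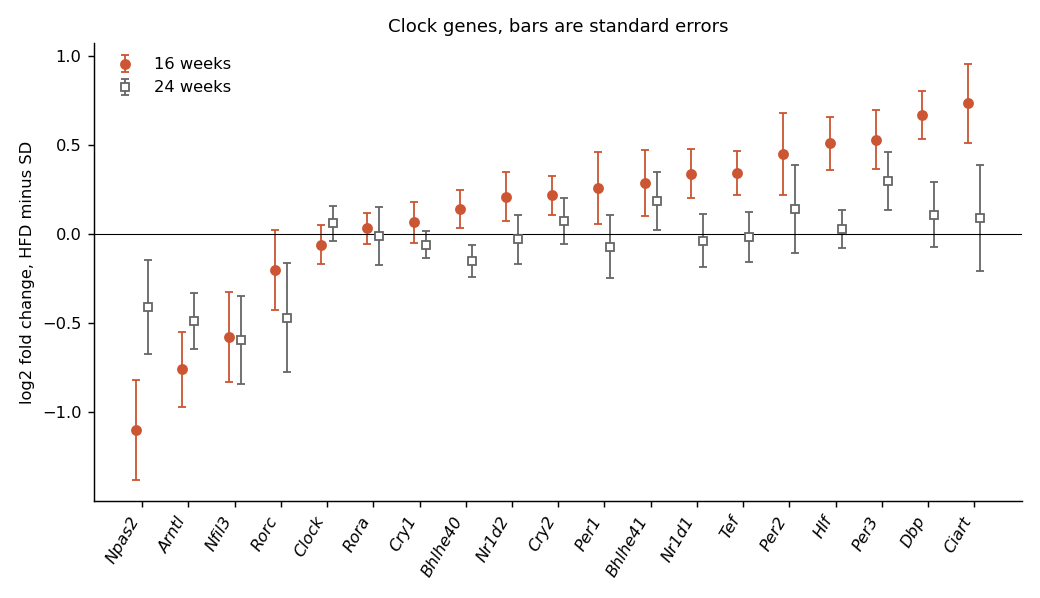
Log2 fold change (HFD minus SD, y axis) of 19 clock genes at 16 weeks (filled circles, 5 SD and 7 HFD samples) and at 24 weeks (open squares, 8 SD and 7 HFD samples), with standard errors as bars. Genes are ordered by their value at 16 weeks, from Npas2 at -1.10 to Ciart at 0.74, and most values at 24 weeks lie nearer to 0.

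Promoters of 2 clock genes that differed are shown for the motifs they hold. The E-box CACGTG, the letters bound by Arntl with Clock or Npas2, was searched on both strands, on which it reads the same. It was present in the 250 bases before the start for 6.02% of 32851 promoters in the RefSeq table (GRCm38.p6). Counted by gene, with any promoter matching, it was present for 5 of the 16 clock genes in that table. These were Bhlhe41, Ciart, Cry1, Per1 and Tef, of which only Ciart and Tef had p under 0.05 at 16 weeks. Some genes have several promoters in the table, so these shares are not of the same unit. The D-box TTATGTAA, bound by Dbp, Hlf, Tef and Nfil3, was present on either strand in 0.819% of promoters and in that of Per3. Neither motif contains the other, and a match is a description of sequence, not a bound site. In the sequences of Ciart (chr3:95882229-95882478, minus strand), where capitals mark the E-box, and Per3 (chr4:151044666-151044915, minus strand), where capitals mark the D-box, Ciart holds it 3 times and Per3 holds it 2 times.
Ciart: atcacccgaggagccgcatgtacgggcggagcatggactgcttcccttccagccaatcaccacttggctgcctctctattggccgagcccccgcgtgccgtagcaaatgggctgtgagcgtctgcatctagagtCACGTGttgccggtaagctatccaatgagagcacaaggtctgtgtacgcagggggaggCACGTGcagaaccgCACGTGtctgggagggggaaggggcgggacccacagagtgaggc
Per3: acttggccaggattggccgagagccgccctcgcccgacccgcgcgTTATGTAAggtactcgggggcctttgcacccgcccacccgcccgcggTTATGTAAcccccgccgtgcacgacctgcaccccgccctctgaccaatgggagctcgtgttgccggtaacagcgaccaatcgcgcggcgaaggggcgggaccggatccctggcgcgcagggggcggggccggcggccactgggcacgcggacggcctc

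Red blood cell and B cell genes were higher in HFD nerve. All 6 red blood cell genes had p under 0.05, against 4.98% of all genes, with a median log2 fold change of 2.69. At 24 weeks, 6 of 6 were higher with a median of 0.79, and 0 had p under 0.05. Hbb-bs, a beta globin, was at 7.74, 9.30, 9.32, 10.53 and 9.14 in SD nerve. HFD values ran from 10.32 to 14.44 with a median of 11.39, so that SD replicate 4 lay within the HFD range (2.90, SE 0.68, exact p = 0.00505). These genes mark red blood cells and their precursors. The blood content of the nerves is not recorded in the sources used here, and its part in other results was not tested.

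Of 7 B and plasma cell genes tested, 7 were higher and 5 had p under 0.05, against 4.98% of all genes. The median was 1.21. At 24 weeks, 7 of 7 were higher with a median of 0.80, and 3 had p under 0.05, against 5.55% of all genes. Igkc, the constant region of the kappa light chain, was at 4.36, 4.54, 4.07, 5.08 and 4.02 in SD nerve. The 7 HFD samples ran from 5.64 to 9.04 with a median of 6.54, and the groups did not overlap (2.93, SE 0.60, exact p = 0.00253). At 24 weeks, Igkc differed by 1.43 (SE 1.09), with SD values up to 9.63. Ms4a1, encoding the B cell antigen CD20, was at 2.71 to 3.87 in SD and 3.47 to 5.90 in HFD nerve (1.60, SE 0.37, exact p = 0.00758). With the red blood cell mean as a covariate, the median of the list was 1.42. That mean itself differed between the diets (6.9 in SD and 9.5 in HFD nerve). Its part in the B cell values cannot be told apart from that of diet. Of 8 MHC class II genes, 6 were higher and 5 had p under 0.05 (median 0.31), with the smallest p-value for Ciita, the master activator of this class (0.65, SE 0.18, exact p = 0.0101).

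Macrophage genes differed in both directions. Of 16 macrophage markers, 7 were higher and 9 lower, with a median of -0.01. Itgax, which marks macrophages of inflamed fat, was at 4.20 to 5.8 in SD and 4.56 to 7.93 in HFD nerve (1.5, SE 0.50, exact p = 0.0303). Cx3cr1, the fractalkine receptor of resident macrophages, was at 8.75, 8.29, 8.91, 9.0 and 8.71 in SD nerve. In HFD nerve it ran from 7.68 to 8.53 with a median of 8.17 (-0.63, SE 0.16, exact p = 0.00505). Its ligand Cx3cl1 was also lower (-0.36). Of 12 genes of lipid-associated macrophages, 10 were higher and 3 had p under 0.05 (median 0.15), among them Mmp12, the macrophage elastase (2.65, SE 0.80, exact p = 0.0202), while Trem2 and Gpnmb differed by 0.25 and 0.12 with exact p-values of 0.371 and 0.528.

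Among 18 chemokines (median 0.09), Cxcl9 was higher (1.42, SE 0.38, exact p = 0.0126) and Ccl2, the classical monocyte attractant, differed by -0.28. Of 10 acute phase genes, 8 were higher and 7 had p under 0.05, against 4.98% of all genes (median 1.65). Hp, encoding haptoglobin, which adipocytes also secrete, was at 8.99 to 13.17 in SD and 12.23 to 15.94 in HFD nerve (2.65, SE 0.79, exact p = 0.0152). Saa3, the serum amyloid A of fat and macrophages, was at 2.95 and 3.00 in HFD replicates 5 and 6 and at 6.94 to 9.13 in the other HFD samples (3.02, SE 0.99, exact p = 0.053). Of 15 complement genes, 12 were higher but only C6 had p under 0.05 (2.27, SE 0.53, exact p = 0.00505). Of 16 interferon-stimulated genes, 3 had p under 0.05, all higher, and the median was -0.01.

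The remaining cell types showed no gene with p under 0.05 in either direction. These were 10 endothelial markers (median 0.10), 10 fibroblast markers (0.00), 8 perineurial markers (0.45, with 8 of 8 higher), 10 mast cell markers (0.14) and 17 collagen chains (-0.07). The perineurial mean was 10.26 to 12.64 in SD and 10.73 to 12.25 in HFD nerve, so the spread among SD samples exceeded the difference between groups of 0.38.

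The 12 genes with the smallest p-values and a lower level in HFD nerve differed by less. They included Rps6ka2, Ccl12, Flrt3, Cldn12, S1pr3, Dnajb11, Csgalnact1, Dusp8, Gpcpd1, Brd9 and Lman2l, and the log2 fold changes of the 12 lay between -0.67 and -0.25. Ccl12, a monocyte chemokine, was at 6.86, 6.97, 7.20, 7.47 and 7.09 in SD nerve. In HFD nerve it ran from 6.19 to 6.68 with a median of 6.43 and no overlap (-0.67, SE 0.14, exact p = 0.00253, adjusted p = 0.245 by limma). Rps6ka2, a kinase of the ERK pathway, was at 11.37 to 11.66 in SD and 11.04 to 11.33 in HFD nerve (-0.32, SE 0.07, exact p = 0.00253).

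S1pr3, a receptor for sphingosine 1-phosphate, was the most abundant of the 12, at 14.59 to 14.82 in SD and 14.16 to 14.52 in HFD nerve (-0.34, SE 0.08). Dusp8, a phosphatase of stress-activated MAP kinases, differed by -0.54 (SE 0.12), and its HFD replicate 7, at 10.93, lay within the SD range of 10.77 to 11.25. Dnajb11, a co-chaperone of the endoplasmic reticulum, differed by -0.29 (SE 0.06). Gpcpd1, which breaks down glycerophosphocholine, differed by -0.42 (SE 0.10). Each of the 12 was lower in 5 of 5 library-number runs.

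The nerves of 24-week mice, none of which were used at 16 weeks, gave the same signs for these genes. All 12 of the higher genes were again higher in HFD nerve and 8 of them had p under 0.05, against 5.55% of 18195 genes tested at that age. All 12 of the lower genes were again lower and 3 had p under 0.05, against 3.51%. Over all genes tested at both ages, 69.7% had the same sign. The median log2 fold change of the higher genes was 2.11 at 16 weeks and 1.34 at 24 weeks, and that of the lower genes was -0.35 and -0.17.

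Nnat itself had log2 values from 7.77 to 11.72 in 8 SD and from 10.02 to 12.93 in 7 HFD samples at 24 weeks, a difference of 1.48 (exact p = 0.0454). The SD samples at 24 weeks thus reached the range of the HFD samples, which those at 16 weeks did not. The change of the HFD effect with age was -2.13 (SE 0.77), and 0 of 18091 genes (0%) passed adjustment for such a change by limma, with 302 at an unadjusted p-value under 0.05. The change was also negative for Brip1 (-1.23, SE 0.44) and Rarg (-0.31, SE 0.12), and it was 0.08 for Slc5a7 (SE 0.90).

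HFD-STZ mice of the same age, which share the SD samples as controls, had a log2 fold change against SD nerve of 3.02 (SE 0.54) for Nnat, 2.55 (SE 0.79) for Lep and 0.15 (SE 0.34) for Krt79. The corresponding values in HFD nerve were 3.61, 4.57 and 1.78.

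**Figure D5:**
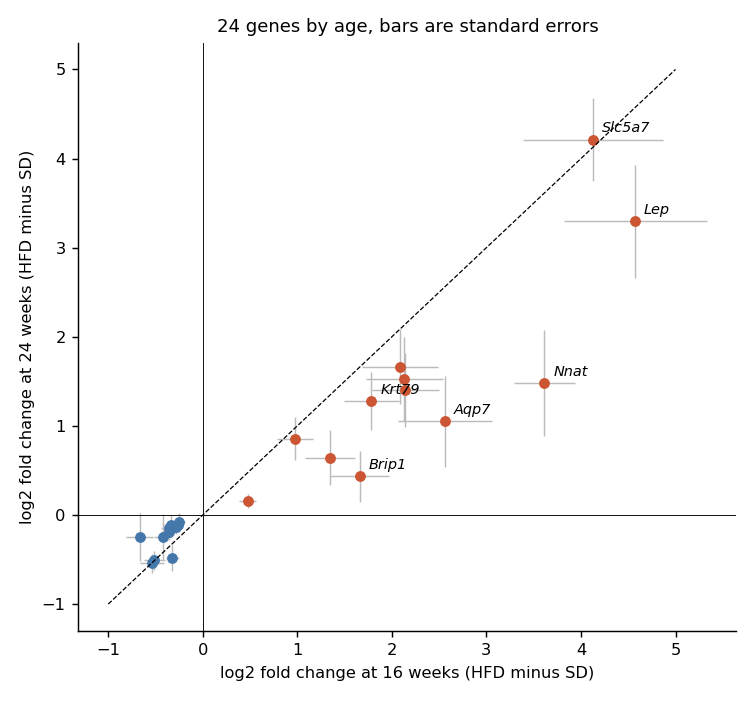
Log2 fold change (HFD minus SD) at 24 weeks (y axis) against 16 weeks (x axis) for the 12 higher (orange) and 12 lower (blue) genes with the smallest p-values at 16 weeks, with standard errors as bars and the line of equal values dashed. All 24 points keep their sign, and Nnat (3.61 and 1.48) lies far below the line while Slc5a7 (4.13 and 4.21) lies on it.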

How the data were processed

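RNA from sciatic nerve was sequenced by the authors, whose reads were filtered, aligned to mm10 (GRCm38) with HISAT2 and counted per gene with featureCounts, and DESeq2 is named in the submitters' processing notes. The authors deposited log2 values, and their normalization is not given in the sources used here, nor can read depth be recovered from them. The labels and the paper name different RNA extraction and library kits.

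Values of the 5 SD and 7 HFD samples at 16 weeks were fitted with limma 3.58.1 (R 4.3.3), with the variance prior trended on mean level and Benjamini-Hochberg adjustment over all genes. Genes with a mean log2 value below 3.3 or any value above 22 were left out. HFD and SD nerve at 24 weeks, and the change of the effect with age, were fitted in the same way. Exact permutation tests used scipy 1.17.1, and genes were placed with GENCODE M21. P-values measure the spread between samples, which no label states to be from separate mice. In simulated data of 17966 genes at 16 weeks, log2 changes of 0.5, 1 and 2 were recovered for 24%, 70.5% and 95.5% of 200 genes each. In these runs 5, 7 and 12 other genes were called in error. The 200 genes were drawn at random and shifted equally in every HFD sample, with independent normal noise. The shares therefore need not hold for genes that vary more between samples, and Lep, at 4.57 (SE 0.76), was not called.

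The samples and the 32 gene lists were chosen with earlier results of these data known. Named genes are the called genes, in each direction the 12 of smallest p-value, the 2 with the smallest in each list, the most abundant marker of marker lists, 11 genes picked from the paper and its supplement, and the 5 closest to a called gene by Pearson's r. Other genes were named after their values were seen. Gpat3 is listed under its older symbol Agpat9. Alternatives changed the filter, centring, variance prior, groups fitted and covariates, and left out each sample in turn. Some named genes are not reported here.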

Additional observations from a re-analysis of the deposited data

Results flagged for a closer look

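Among 254 groups of 5 or 7 values (single named genes and list means), 14 had a highest or lowest sample far from the others by Dixon's test, and chance flags about 1 in 20 groups. In SD nerve, replicate 2 stood apart for the skeletal muscle mean at 13.67 (nearest 7.64), for Acta1, encoding skeletal actin, at 16.48 (nearest 9.89), and for Cldn12 at 11.8 (nearest 11.7). SD replicate 5 was apart for Acly at 14.72 (nearest 13.97) and for the B and plasma cell mean at 4.69 (nearest 5.05). HFD replicate 7 was apart in 5 groups: Il18rap at 5.81 (nearest 4.68), Dusp8 at 10.93 (10.45), the perineurial markers Lypd2 at 8.68 (9.6) and Itgb4 at 14.74 (15.13), and the perineurial mean at 10.73 (11.79). HFD replicate 6 was apart for Gpcpd1 at 12.03 (nearest 11.78) and Nefh at 10.49 (9.74). HFD replicate 2 was apart for Flrt3 at 10.59 (nearest 10.8), and HFD replicate 1 for the interferon-stimulated mean at 9.41 (nearest 8.84). No named gene had an HFD effect that differed between 16 and 24 weeks after adjustment by limma, which called 0 of 18091 genes, with 302 under 0.05 before adjustment.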

How the results depend on the processing

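The number of genes called at 16 weeks was 1 with the values above 22 kept, with the filter on low values applied to each sample, with median centring, without the variance trend and with robust empirical Bayes. It was 2 without the filter on low values (Nnat and Gm9013, whose group means of -0.34 and -0.23 are below 1 on the linear scale), 7 with all 8 groups in 1 fit, 17 with all 8 groups and the library-number run, 5 with the adipocyte covariate, 4 with the muscle covariate and 15 with both. It was 0 with the run as a block and 0 with the red blood cell covariate, an alternative chosen after seeing the data, and the log2 fold change of Nnat was then 3.51 and 3.67. Nnat was called in each of the other alternatives run. In the fit of all 8 groups, the genes called were Slc5a7 (adjusted p = 0.0043 by limma), Lep and Nnat (both 0.024), Brip1, Ubd, Itgad and Krt79. The SE of Nnat was 0.69 in that fit. These genes also passed with the run added, as did Alas2, Hba-a1, Hba-a2, Hbb-bs and Hbb-bt among others. With 1 sample left out, 1 to 7 genes were called, the 7 being without HFD replicate 6, and Nnat was called each time. The causes of these differences were not tested. Residuals of SD and HFD samples in the same run had correlations of -0.003, 0.04, 0.25, 0.17 and -0.27. The median for samples of different runs was 0.03. The labels do not say whether the runs are batches, and this was not tested.

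Without adjustment, genes higher and lower in HFD nerve numbered 1616 and 876 without the filter, 685 and 1113 after median centring, 556 and 247 with the red blood cell covariate, 774 and 971 with the adipocyte covariate, 1221 and 1493 with the adipocyte and muscle covariates, and 1164 and 985 with all groups and the run. Genes lower numbered 358 without SD replicate 2, 419 without HFD replicate 2, 396 without HFD replicate 4 and 1049 without HFD replicate 7. For the change of effect with age, 1 gene (Trbv26, with group means from -1.45 to -1.35) passed without the filter and 0 in the other alternatives.

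Some named genes that were not called changed sign. With the adipocyte covariate, log2 fold changes were 0.073 for Cd9, -0.24 for Vwf, -0.28 for Pi16, -0.30 for Dcn, -0.37 for Lypd2, -0.66 for Msln, -0.23 for Itgb4, -0.00099 for Gata2, -0.34 for Tpsb2, 0.19 for Uchl1 and -0.012 for Cfb. With both the adipocyte and muscle covariates, they were 0.011 for Cd9, -0.22 for Vwf, -0.39 for Pi16, -0.46 for Dcn, -0.67 for Lypd2, -0.95 for Msln, -0.24 for Itgb4, -0.086 for Fcer1a, -0.92 for Tpsb2, 0.20 for Uchl1, -0.16 for Hk2 and -0.080 for Pfkl. With the red blood cell covariate, they were -0.76 for Myh2, -1.06 for Myh1, -0.78 for Acta1, -0.40 for Dcn, -0.19 for Lypd2, -0.039 for Msln, -0.093 for Itgb4, -0.29 for Fcer1a and -0.37 for Tpsb2. With 1 sample left out, -0.038 to 0.16 for Vwf, -0.070 to 0.22 for Dcn, -0.047 to 0.18 for Itgb4, -0.52 to 0.64 for Tpsb2 and -0.13 to 0.016 for Uchl1 were the ranges. The depth of each sample cannot be recovered from the deposited values, so what it limits cannot be stated.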

Other observations

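Mup17, Mup13 and Serpina3k, chosen after their values were seen, passed the threshold only in fits with the adipocyte mean as a covariate. Mup17 and Mup13 encode major urinary proteins, small lipocalins that the liver secretes into urine and that fat also expresses. Mup17 was at 4.64, 4.62, 7.69, 8.94 and 9.63 in SD nerve and at 3.08 to 6.85, with a median of 4.88, in HFD nerve (-2.33, SE 0.88, exact p = 0.053). Mup13 was at 2.25 to 7.71 in SD and 2.08 to 4.16 in HFD nerve (-2.24, SE 0.85, exact p = 0.0556). SD replicates 1 and 2, the SD samples with the lowest adipocyte means, had the lowest SD values of both genes and lay within the HFD range. In the fit with the adipocyte mean as a covariate, both genes passed the threshold, at -4.37 (SE 0.57, adjusted p = 0.0123) for Mup17 and -4.31 (SE 0.47, adjusted p = 0.00318) for Mup13. The family consists of nearly identical copies, so the split of reads between its members is uncertain. Serpina3k, a serine protease inhibitor of the liver, was at 2.71 to 5.41 in SD and 2.05 to 3.69 in HFD nerve. It passed in the same fit at -2.40 (SE 0.31, adjusted p = 0.0123). The HFD medians of Mup13 (2.17) and Serpina3k (2.88) lay below the filter on low values, which was applied to the mean over both groups. The adipocyte mean itself differed between the diets (10.6 in SD and 12.2 in HFD nerve). Its part in the values of these genes cannot be told apart from that of diet.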
